A study of Mus musculus with 23 samples.

Results

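The liver transcripts of 32 genes of fatty acid beta-oxidation were compared across 2 diets and 2 antibodies in mice. The genes were taken by symbol from a list of the enzymes of the mitochondrial and the peroxisomal pathway and of the carnitine shuttle. All 32 were found among the 24475 genes of the deposited expression table. All 32 also passed a filter on low values that 11939 genes passed, namely at least 0.5 RPKM (read numbers divided by gene length and library total) in at least 5 of the 23 libraries.

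The RNA came from the liver of male C57BL/6J mice, whose ages the labels do not give. Their food was regular chow or, for the HFD groups, a diet high in fat over 4 months, and the antibodies were then given over 3 weeks at a dose of 10 mg/kg. REGN1193 blocks the glucagon receptor (GCGR), through which glucagon acts on hepatocytes, and the labels name no genetic change in any group. REGN496 was taken as the isotype control by elimination, because the design text gives no code for that control. The groups were chow with REGN496 (n = 5, libraries 1 to 5), chow with REGN1193 (n = 6, libraries 6 to 11), HFD with REGN496 (n = 6, libraries 12 to 17) and HFD with REGN1193 (n = 6, libraries 18 to 23), numbered as in the sample titles. They are called chow control, chow GCGR antibody, HFD control and HFD GCGR antibody here. Whether every library came from its own mouse is not stated, and the p-values therefore reflect only how much these libraries vary.

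Beta-oxidation shortens fatty acids by successive rounds of dehydrogenation, hydration, a further dehydrogenation and thiolytic cleavage, each round releasing acetyl-CoA. Long chains are first activated to acyl-CoA and cross the inner mitochondrial membrane as carnitine esters, while peroxisomes shorten very long and branched chains and pass the products on. In liver the pathway feeds ketone body synthesis during fasting, glucagon favours it, and the nuclear receptor PPARA activates many of its genes.

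The summed RPKM of the 8 hepatocyte markers examined, among them albumin (Alb), lay between 49607 and 67644 in every library, so the tissue matched its label. The 5 muscle markers summed to 124 RPKM in library 11 of the chow GCGR antibody group and to at most 1.18 in any library of the other 3 groups. Libraries 19 and 20 of the HFD GCGR antibody group correlated least with the others of their group (mean r 0.980 and 0.979). Read numbers are not in the table, so the depth behind each value is unknown. In whole liver, fewer cells of a type and less RNA per cell cannot be told apart.

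Fold changes below are differences of group means of log2(RPKM + 1) ± SE from limma, and a gene was called higher or lower at an adjusted p under 0.05 over the 11939 genes (Benjamini-Hochberg). Levels are in RPKM, with group means ± SD.

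More of the 32 genes differed by diet than by antibody. Under the control antibody 24 of the 32 genes were higher on HFD, none was lower and 8 were not called, while 11.6% of all tested genes were called higher and 18.3% lower. Under the GCGR antibody 16 were higher on HFD and 1, the peroxisomal carnitine acyltransferase gene Crot, was lower, against 13.2% and 16.6% of all tested genes. Without libraries 19 and 20 these counts were 15 and 2. Over all genes the calls then went from 1579 higher and 1983 lower to 1267 and 1849. The median log2 fold change of the 32 genes was 0.34 under the control antibody and 0.24 under the GCGR antibody, where all tested genes had medians of -0.03 and -0.02. Every library of the HFD control lay above every chow control library in 18 of the 32 genes, a separation seen in 5.49% of all tested genes. Under the GCGR antibody 7 of the 32 were separated in this way, against 5.15%. With the libraries rescaled by median ratios, 25 of the 32 genes were higher under the control antibody. The calls over all genes there moved from 1390 higher and 2183 lower to 1805 and 1819. Under the GCGR antibody the same scaling gave 19 of the 32 higher, with 1853 higher and 1765 lower over all genes. Upper-quartile scaling also gave 19, with 1846 higher and 1784 lower.

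**Figure D1:**
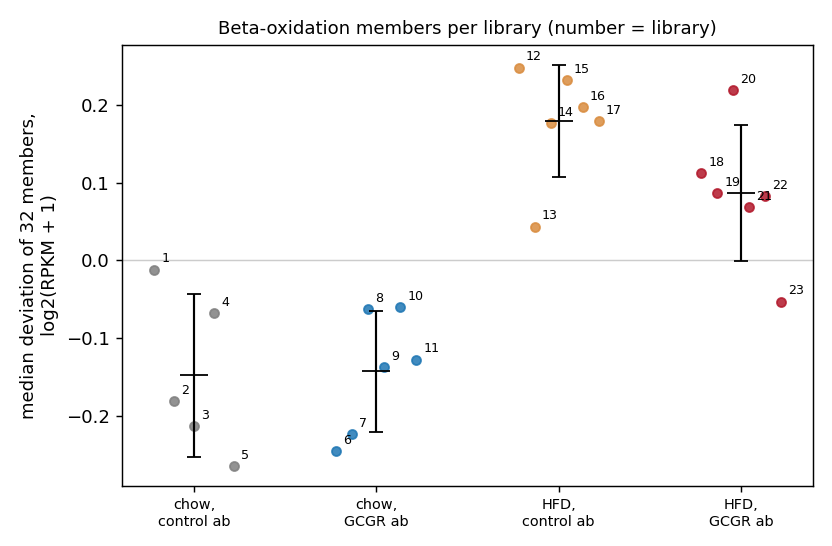
Each point is 1 of the 23 libraries, grouped by diet and antibody on the x axis and labelled by library number; the y axis is the median over the 32 genes of the log2(RPKM + 1) deviation from each gene's mean. Chow libraries lie between -0.26 and -0.01 and HFD control libraries between 0.04 and 0.25, while HFD GCGR antibody libraries run from -0.05 (library 23) to 0.22 (library 20).

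As the plot of the level per library shows, the HFD control libraries were all above the chow control libraries. The HFD GCGR antibody libraries were all above the chow GCGR antibody libraries, of which the highest was at -0.060, although library 23 lay below the highest chow control library. As a share of all RPKM the 32 genes made up 0.935% ± 0.057 in chow control, 0.917% ± 0.078 in chow GCGR antibody, 1.08% ± 0.070 in HFD control and 0.9999% ± 0.110 in HFD GCGR antibody (SD, n = 5, 6, 6 and 6). Scp2 and Acaa1b, the 2 highest genes, share sequence with copies. Without them the share ran from 0.562% to 0.665% in chow control and from 0.540% to 0.644% in chow GCGR antibody. It ran from 0.659% to 0.740% in HFD control and from 0.606% to 0.784% in HFD GCGR antibody. Within groups the median SD of the 32 genes was 0.12 on the log2 scale against 0.15 for all tested genes. The 32 had means of 17.5 RPKM or more, and genes of like level were not compared. Most of the 32 moved together between libraries of a group. The correlation of a gene with the median of the other 31, over the 23 group-centred libraries, had a median of 0.63 and exceeded 0.5 in 25 genes. It was highest for Hadha (0.85) and lowest for Etfb (-0.39). All genes of a library share its depth and scaling. This correlation was not computed for other genes, so it cannot be read as particular to these 32.

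The levels per length spanned from Scp2, a sterol carrier and peroxisomal thiolase gene with a mean of 1328 RPKM over all libraries, to Crat, the carnitine acetyltransferase gene, with 17.5 RPKM. Acaa1b (795 RPKM), a peroxisomal thiolase gene, and Acaa2 (489 RPKM), the mitochondrial thiolase gene, followed Scp2. The 8 genes of the peroxisomal group included 2 of the 3 highest and the second lowest, Pex11a with 45.4 RPKM.

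Entry into mitochondria came first. Of the 7 genes of activation and the carnitine shuttle, 5 were higher on HFD under the control antibody and 2 under the GCGR antibody. Cpt1a, on chromosome 19 (GRCm38.p6, 3322326 to 3385735), encodes the liver isoform of carnitine palmitoyltransferase 1, the regulated entry step. Its chow control libraries read 61.8, 70.5, 78.5, 78.8 and 86.1 RPKM, and the HFD control libraries ran from 96.4 through a median of 123 to 139. Under the GCGR antibody the chow libraries ran from 48.1 (median 65.6) to 75.1 and the HFD libraries from 88.8 (median 99.9) to 130. So no HFD library overlapped the chow libraries of the same antibody. Cpt1a was higher on HFD by 0.68 ± 0.12 (adjusted p = 3.31e-04) under the control antibody and by 0.67 ± 0.11 (adjusted p = 1.73e-04) under the GCGR antibody.

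Downstream of Cpt1a, the carnitine-acylcarnitine translocase gene Slc25a20 was at 58.1 ± 6.92 RPKM in chow control, 60.9 ± 6.22 in chow GCGR antibody, 79.8 ± 7.63 in HFD control and 75.8 ± 6.88 in HFD GCGR antibody. It was higher on HFD by 0.45 ± 0.09 (adjusted p = 6.50e-04) under the control antibody and by 0.31 ± 0.08 (adjusted p = 0.00685) under the GCGR antibody, with overlapping libraries both times. Cpt2, the gene of the enzyme that returns the chains to CoA in the matrix, was higher on HFD under the control antibody by 0.19 ± 0.06 (adjusted p = 0.0166), and its estimate under the GCGR antibody was 0.04 ± 0.05 (adjusted p = 0.604). Acsl5, a long-chain acyl-CoA synthetase gene, gave 0.29 ± 0.08 (adjusted p = 0.00651) and 0.09 ± 0.07 (adjusted p = 0.365) in the same order. For neither Cpt2 nor Acsl5 did the difference between these diet effects pass the threshold, as given with the antibody results.

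Crat had the largest diet effect of the 32 genes under the control antibody. The enzyme exchanges acetyl and short acyl groups between CoA and carnitine. The 5 chow control libraries were at 7.35, 9.92, 9.94, 11.7 and 13.1 RPKM, and the HFD control libraries ran from 18.05 (library 13) through a median of 33.2 to 42.1. Every HFD control library was above every chow control library, and Crat was higher by 1.52 ± 0.23 (adjusted p = 6.96e-05). With the GCGR antibody Crat ran from 8.68 (median 10.7) to 12.8 on chow and from 7.30 (median 15.3) to 26.4 on HFD. These ranges overlapped, and the estimate of 0.38 ± 0.22 was not called (adjusted p = 0.204).

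Crot was the 1 gene of the 32 to be lower on HFD. Its enzyme transfers medium chains made in peroxisomes to carnitine. The chow GCGR antibody libraries ran from 199.9 (median 250.4) to 311 RPKM and the HFD GCGR antibody libraries from 139 (median 162) to 261 (library 20), and the ranges overlapped. The difference of -0.53 ± 0.14 passed the threshold (adjusted p = 0.00846). In chow control the libraries were at 195, 208, 241, 259.7 and 289 RPKM and in HFD control they ran from 168 (median 189) to 223, a difference of -0.31 ± 0.15 (adjusted p = 0.123). The remaining gene of the shuttle group, Acsl1, the main long-chain acyl-CoA synthetase gene of liver, had diet estimates of -0.12 ± 0.12 and -0.03 ± 0.11, neither called (adjusted p = 0.445 and 0.844).

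**Figure D2:**
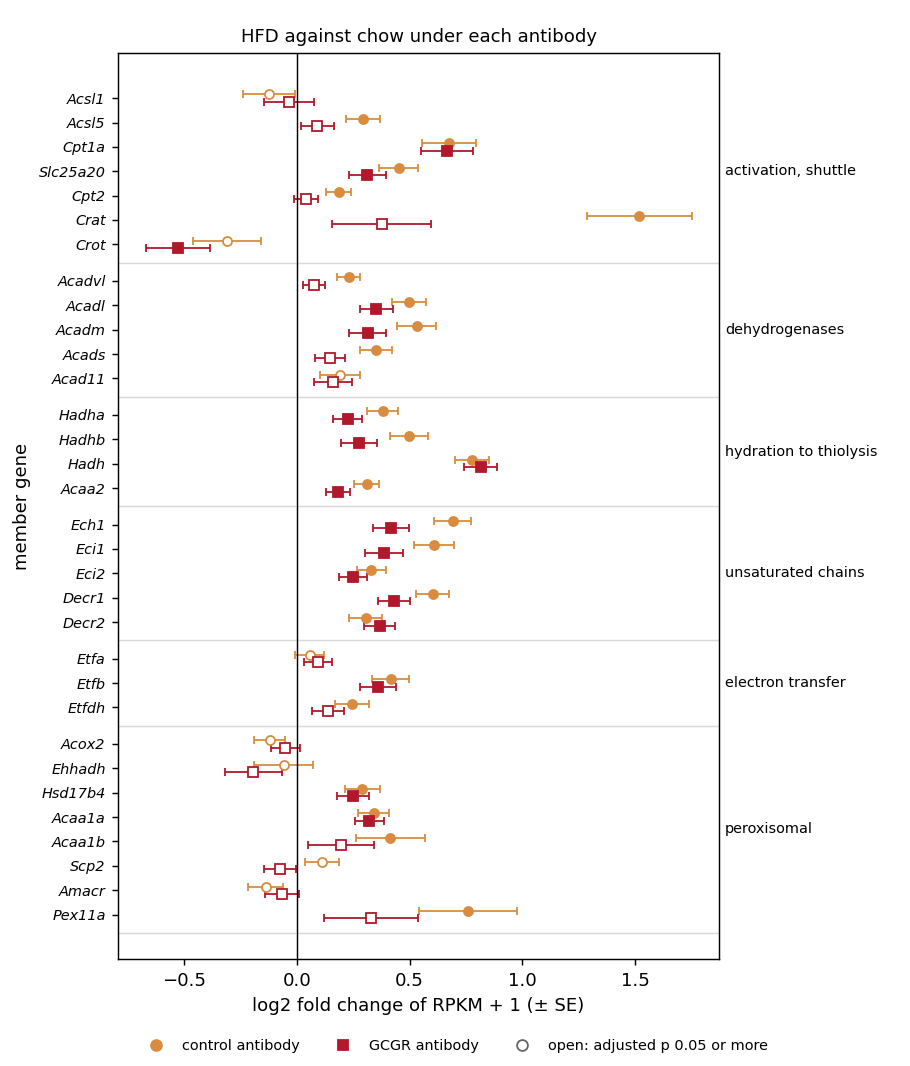
The x axis is the HFD minus chow difference in log2(RPKM + 1) with bars of 1 SE for each of the 32 genes, listed by role on the y axis, under the control antibody and under the GCGR antibody; filled symbols passed an adjusted p of 0.05. Filled points lie to the right of 0 for 24 genes under the control antibody and 16 under the GCGR antibody, with Crat at 1.52 and 0.38 and Crot the only filled point on the left at -0.53.

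The acyl-CoA dehydrogenases, which open each round on chains of a given length, were higher on HFD in 4 of 5 genes under the control antibody and in 2 of 5 under the GCGR antibody. Acadm, the medium-chain enzyme gene on chromosome 3 (153922353 to 153944643), was at 119, 126, 132, 134 and 143 RPKM in chow control. Its HFD control libraries ran from 171 (median 189.7) to 206, above all of these. The chow GCGR antibody libraries ran from 117 (median 137) to 141 and the HFD GCGR antibody libraries from 132 (library 23, median 163) to 215 (library 20), with overlap. Acadm was higher on HFD by 0.53 ± 0.09 (adjusted p = 1.40e-04) under the control antibody and by 0.31 ± 0.08 (adjusted p = 0.00671) under the GCGR antibody. Of its 33-base transcript windows 10.6% also occur in the copy Gm5131, which makes its level less certain. The long-chain enzyme gene Acadl went from 75.2 ± 8.43 to 106 ± 6.36 RPKM under the control antibody and from 70.7 ± 6.76 to 90.5 ± 7.33 under the GCGR antibody. It was called both times, at 0.50 ± 0.08 (adjusted p = 7.26e-05) and 0.35 ± 0.07 (adjusted p = 0.001002).

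The very-long-chain enzyme gene Acadvl and the short-chain enzyme gene Acads were higher under the control antibody by 0.23 ± 0.05 (adjusted p = 0.00220) and 0.35 ± 0.07 (adjusted p = 8.68e-04). Their estimates under the GCGR antibody were 0.08 ± 0.05 (adjusted p = 0.235) and 0.15 ± 0.07 (adjusted p = 0.0932). Acad11, a dehydrogenase gene of the same family, was at 79.9 (library 2), 97.98, 98.4, 99.7 and 103 RPKM in chow control. The HFD control libraries ran from 96.3 (median 109.6) to 118, overlapping them, and the difference of 0.19 ± 0.09 was not called (adjusted p = 0.107). With median-ratio or upper-quartile scaling Acad11 passed the threshold.

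All 4 genes of hydration, the later dehydrogenation and thiolysis were higher on HFD under both antibodies. Hadh, on chromosome 3 (131233419 to 131272101), encodes the short-chain hydroxyacyl-CoA dehydrogenase and had the smallest adjusted p of the 32 genes in both diet comparisons. The chow control libraries were at 131, 135, 144, 147 and 160.3 RPKM, and the HFD control libraries ran from 206 (library 13) through a median of 254 to 259.8. With the GCGR antibody chow ran from 120.5 (median 134) to 145 and HFD from 202 (median 241) to 265. No HFD library overlapped chow, and Hadh was higher by 0.78 ± 0.08 (adjusted p = 2.33e-07) and 0.81 ± 0.07 (adjusted p = 6.24e-08).

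Hadha and Hadhb encode the alpha and beta subunits of the mitochondrial trifunctional protein, which carries out the last 3 steps on long chains. The genes lie head to head on chromosome 5, and 85 bases separate their starts in GENCODE. That stretch is shown because the pair shares it as upstream sequence, read from RefSeq's GRCm38.p6 promoter window on the plus strand at chr5:30155163-30155247, with each CG dinucleotide in capitals. RefSeq places the gene boundaries farther apart, at 30154980 and 30155253.
Hadha and Hadhb: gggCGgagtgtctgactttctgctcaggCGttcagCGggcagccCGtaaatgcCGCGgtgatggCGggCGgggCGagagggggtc
The stretch is 69.4% G and C, holds 9 CG dinucleotides, and has neither a CCAAT motif nor AGGTCA on either strand.

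Hadha was at 100.4, 108, 110.2, 121 and 129 RPKM in chow control and ran from 138 (median 147) to 161 in HFD control. With the GCGR antibody it ran from 103 (median 118) to 121 on chow and from 118 (median 134) to 144 on HFD. The ranges were apart under the control antibody and overlapped under the GCGR antibody, with differences of 0.38 ± 0.07 (adjusted p = 3.31e-04) and 0.23 ± 0.06 (adjusted p = 0.0114). Hadhb was higher by 0.50 ± 0.08 (adjusted p = 2.01e-04) and 0.28 ± 0.08 (adjusted p = 0.0120). Within groups the RPKM of the pair moved together (r = 0.89 over the 23 group-centred libraries). The ratio of Hadhb to Hadha was 0.678 to 0.739 in chow control, 0.702 to 0.716 in chow GCGR antibody, 0.736 to 0.826 in HFD control and 0.6899 to 0.815 in HFD GCGR antibody. Of the 33-base windows of Hadhb transcripts 65.2% also occur in other genes, mostly in the copy Gm13910, so the level of Hadhb is uncertain. Acaa2, the thiolase gene that completes the round, was higher by 0.31 ± 0.06 (adjusted p = 3.81e-04) and 0.18 ± 0.05 (adjusted p = 0.0133).

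The auxiliary enzymes, which shift or reduce double bonds so that unsaturated chains can enter the same rounds, were higher on HFD in 5 of 5 genes under both antibodies. Ech1, the gene of a dienoyl-CoA isomerase on chromosome 7 (28825338 to 28832239), was at 154, 178, 193, 194 and 218 RPKM in chow control and ran from 258 (median 302) to 337 in HFD control. With the GCGR antibody it ran from 192 (median 204) to 217 on chow and from 237 (median 275) to 312 on HFD. Neither pair of ranges overlapped. Ech1 was higher by 0.69 ± 0.08 (adjusted p = 4.37e-06) under the control antibody and by 0.42 ± 0.08 (adjusted p = 4.59e-04) under the GCGR antibody.

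Decr1, the mitochondrial dienoyl-CoA reductase gene, had group means of 46.7 ± 3.70 and 71.6 ± 6.59 RPKM on chow and HFD under the control antibody and of 49.5 ± 2.62 and 67.2 ± 6.73 under the GCGR antibody. The differences were 0.60 ± 0.07 (adjusted p = 5.29e-06) and 0.43 ± 0.07 (adjusted p = 1.00e-04), without overlap. Eci1, an enoyl-CoA isomerase gene, was higher by 0.61 ± 0.09 (adjusted p = 4.37e-05) and 0.39 ± 0.08 (adjusted p = 0.00164). The peroxisomal reductase gene Decr2 was the 1 gene of the 5 with the larger estimate under the GCGR antibody, at 0.30 ± 0.07 (adjusted p = 0.00355) and 0.37 ± 0.07 (adjusted p = 4.51e-04). Eci2 was higher by 0.33 ± 0.07 (adjusted p = 9.58e-04) and 0.25 ± 0.06 (adjusted p = 0.00529). Its transcripts share 11.4% of their 33-base windows with Eci3, which is in the table at no more than 0.284 RPKM.

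Electron transfer followed in part. Etfa and Etfb encode the subunits of the flavoprotein that takes electrons from the acyl-CoA dehydrogenases, and Etfdh the oxidoreductase that hands them to ubiquinone. Etfb was at 218, 222, 237, 253 and 255 RPKM in chow control and from 275 (median 322) to 341 in HFD control, without overlap. With the GCGR antibody Etfb ran from 181 (median 209.6) to 239 on chow and from 215 (library 20, median 279.8) to 310 on HFD, with overlap. It was higher by 0.42 ± 0.08 (adjusted p = 9.92e-04) and 0.36 ± 0.08 (adjusted p = 0.00184). The transcripts share 67.9% of their 33-base windows with the overlapping gene Gm45233, so the level of Etfb is uncertain. Etfdh was higher under the control antibody (0.25 ± 0.08, adjusted p = 0.0174) and not called under the GCGR antibody (0.14 ± 0.07, adjusted p = 0.148). Etfa had estimates of 0.06 ± 0.06 and 0.09 ± 0.06, not called (adjusted p = 0.534 and 0.253). Other genes, mostly the copy Gm15285, hold 10.3% of the 33-base windows of Etfa, which makes its level less certain.

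The peroxisomal genes were split. Of these 8, 4 were higher on HFD under the control antibody and 2 under the GCGR antibody. Ehhadh, on chromosome 16 (21761285 to 21787834), encodes the peroxisomal bifunctional enzyme and is a classical target of PPARA. Its chow control libraries were at 77.1, 88.8, 96.0, 102 and 119 RPKM and the HFD control libraries ran from 80.0 (median 93.1) to 101, within that span. The chow GCGR antibody libraries ran from 65.7 (median 82.3) to 107 and the HFD GCGR antibody libraries from 62.2 (median 69.8) to 106 (library 20). The diet estimates were -0.06 ± 0.13 (adjusted p = 0.774) and -0.19 ± 0.13 (adjusted p = 0.253). Without library 20 the estimate under the GCGR antibody was -0.29 and passed (adjusted p = 0.0495).

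Hsd17b4, the gene of the other bifunctional enzyme of peroxisomes, was higher on HFD by 0.29 ± 0.08 (adjusted p = 0.00685) and 0.25 ± 0.07 (adjusted p = 0.0130). The thiolase gene Acaa1a went from 107 ± 7.64 to 136 ± 13.4 RPKM under the control antibody and from 110 ± 6.87 to 137 ± 8.52 under the GCGR antibody. It was higher by 0.34 ± 0.07 (adjusted p = 9.87e-04) and 0.32 ± 0.07 (adjusted p = 8.72e-04), without overlap. Its close copy Acaa1b ran from 594 to 815 RPKM in chow control and from 711 (median 902) to 1264 in HFD control, higher by 0.42 ± 0.15 (adjusted p = 0.0457). That call was lost when any 1 of libraries 2, 3, 4, 5, 12, 15 and 17 was left out (adjusted p up to 0.116). Acaa1b under the GCGR antibody gave 0.20 ± 0.15 (adjusted p = 0.331). Acaa1a and Acaa1b share 42.5% and 44.4% of their respective 33-base windows, so the division of reads between them is uncertain.

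Pex11a, whose product takes part in peroxisome division and which is a target of PPARA, was at 22.04, 25.8, 26.8, 27.0 and 34.3 RPKM in chow control and ran from 23.1 (library 13) through a median of 51.4 to 66.0 in HFD control. It was higher by 0.76 ± 0.22 (adjusted p = 0.0117), with overlap through library 13. In the GCGR antibody groups it ran from 36.0 (median 40.6) to 59.0 on chow and from 41.5 (median 52.0) to 95.4 (library 20) on HFD, a difference of 0.33 ± 0.21 that was not called (adjusted p = 0.241). The other 3 peroxisomal genes were not called under either antibody. Scp2 had diet estimates of 0.11 ± 0.07 and -0.07 ± 0.07, and 45.0% of its windows occur in other genes, mostly Scp2-ps2, which leaves its level uncertain. Acox2, a branched-chain acyl-CoA oxidase gene, gave -0.12 ± 0.07 and -0.05 ± 0.07. Amacr, the gene of the racemase that prepares branched chains, gave -0.14 ± 0.08 (adjusted p = 0.190) and -0.07 ± 0.07 (adjusted p = 0.523), with chow control at 75.2 to 92.3 RPKM and HFD control at 69.5 to 77.8.

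The calls of higher genes nested between the diet comparisons. All 16 genes higher on HFD under the GCGR antibody were also higher under the control antibody, which is 100% of the 16 and 66.7% of the 24. The share of calls in common over all tested genes was not counted, so the nesting cannot be read as particular to these 32. The 8 genes called only under the control antibody were Acsl5, Cpt2, Crat, Acadvl, Acads, Etfdh, Acaa1b and Pex11a. In 26 of 32 genes the diet estimate was larger under the control antibody. Of all tested genes 53.9% had the larger diet estimate under the GCGR antibody. The test of the difference between the diet effects is the interaction reported with the antibody effects, and it called none of the 32 genes.

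Other genes of oxidation and of PPARA signalling were counted in the same way. Of 39 tested genes of oxidation outside the 32 (transporters, other synthetases and dehydrogenases, ketone body and branched-chain enzymes), 12 were higher (30.8%) and 8 lower (20.5%) on HFD under the control antibody, and 13 (33.3%) and 6 (15.4%) under the GCGR antibody. The shares called lower were near the 18.3% and 16.6% of all tested genes. Of 32 genes of PPARA, its regulators and its targets, 14 were higher (43.8%) and 2 lower (6.25%) under the control antibody, and 13 (40.6%) and 2 (6.25%) under the GCGR antibody. Ppara itself was at 38.2 ± 5.15 RPKM in chow control and 63.7 ± 9.49 in HFD control, higher by 0.72 ± 0.13 (adjusted p = 5.18e-04). In the GCGR antibody groups Ppara went from 40.6 ± 9.24 to 68.8 ± 6.61, higher by 0.77 ± 0.13 (adjusted p = 1.25e-04).

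Among the genes of these lists with the smallest adjusted p under the control antibody, all of those named here were higher. They were Acat1 (0.85 ± 0.08), a mitochondrial thiolase gene of ketone body and isoleucine breakdown, Hsd17b10 (0.80 ± 0.10), a mitochondrial dehydrogenase gene, Vnn1 (1.71 ± 0.22), a pantetheinase gene, and Mgll (1.22 ± 0.17), the monoacylglycerol lipase gene. In the diet effect under the GCGR antibody they included Hsd17b10 (1.001 ± 0.097), the peroxisomal fatty acid transporter gene Abcd2 (1.64 ± 0.25), the fatty acid uptake gene Cd36 (1.86 ± 0.27) and, lower, Acadsb (-0.62 ± 0.10), the branched-chain acyl-CoA dehydrogenase gene.

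Of the 46 tested markers of cells other than hepatocytes, 3 were higher (6.52%, against 11.6% of all tested genes) and 1 lower on HFD under the control antibody. Under the GCGR antibody 9 were higher (19.6%) and 8 lower (17.4%), against 13.2% and 16.6%. Of the 8 hepatocyte markers 2 were higher and 2 lower under the control antibody, and 1 and 1 under the GCGR antibody. The adipocyte markers summed to 0.702 to 2.87 RPKM in chow control and 4.40 to 74.8 in HFD control, nearly all from Cfd, with Adipoq at 0 in every HFD control library. Stellate and matrix markers were higher in 6 of 10 genes on HFD under the GCGR antibody, with sums of 88.8 to 97.0 RPKM on chow and 81.9 to 190 on HFD. In the same comparison 4 of 10 macrophage and monocyte markers were lower and 1 higher, and 2 of 8 endothelial markers were lower and 1 higher. Hepatocyte marker sums ran from 51577 to 64199 in chow control and from 57373 to 67644 in HFD control. The part of these markers in the diet results was not tested.

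The promoters were searched for the letters of the PPARA response element, because Ppara and many of the 32 genes were higher on HFD together. RefSeq windows of 300 bases around a transcript start (GRCm38.p6) were found for 27 of the 32 genes, 29 windows in all. Of these 24 lay within 300 bases of the gene's own RefSeq start and 5 farther inside the gene, those of Cpt1a (975 bases inside), Acsl5 (1508), Scp2 (26424) and Eci2 (32971) and the inner of 2 windows of Acsl1 (19929). The exact full element, a direct repeat of AGGTCA spaced by 1 base, was in the windows of none of the 27 genes on either strand. Over all 27025 genes with windows, 0.0481% had it. An exact match is so rare that its absence from 27 genes says nothing on them, and inexact forms were not searched. The core AGGTCA alone was in the windows of 4 of the 27 genes (14.8%), against 18.1% of all genes with windows. These 4 matches are shown with up to 20 bases on each side along the gene's strand, the core in capitals, which reads TGACCT where it lies on the opposite strand. Their coordinates are chr19:3323187-3323232 for Cpt1a on the plus strand, chr11:70015490-70015535 for Acadvl, chr3:153944867-153944893 for Acadm and chr4:108118631-108118676 for Scp2, the last 3 on the minus strand.
Cpt1a: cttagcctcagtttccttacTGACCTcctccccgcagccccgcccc
Acadvl: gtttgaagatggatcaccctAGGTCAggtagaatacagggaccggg
Acadm: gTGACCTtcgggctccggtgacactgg
Scp2: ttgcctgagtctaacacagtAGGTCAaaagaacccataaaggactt
Of these 4 genes Cpt1a, Acadvl and Acadm were higher on HFD under the control antibody and Scp2 was not called. Of all 32 genes 24 were higher there. Under the GCGR antibody Cpt1a and Acadm were higher and Acadvl and Scp2 were not called, beside 16 higher of the 32. A link between the core and the diet effect was not tested. A match is a description of these letters in this window, and elements that are inexact or farther away were not searched.

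The antibody was then compared with its control within each diet. On chow none of the 32 genes was called by limma, against 0.394% of all tested genes called higher and 0.553% lower. At an unadjusted p under 0.05 limma counted 4 of the 32, Pex11a and Eci2 upward and Acsl5 and Etfa downward, where 10.8% of all tested genes passed. An exact rank-sum test passed none of the 11939 genes on chow, so it says nothing on the 32. The estimates were positive in 18 genes and negative in 14, with a median of 0.02 against 0.03 for all tested genes. Rescaling moved the median of the 32 to -0.03 (median ratios) or -0.02 (upper quartile), so its sign depended on the scaling.

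Pex11a had the largest estimate on chow. All 6 chow GCGR antibody libraries, from 36.0 RPKM, lay above the chow control libraries, of which the highest was 34.3. The difference was 0.70 ± 0.22 (adjusted p = 0.182). With only the chow groups in the fit it passed, at an adjusted p of 0.0456. Leaving out library 11, the library with muscle transcripts, gave 0.74 (adjusted p = 0.156). The next estimates were -0.23 ± 0.12 for Cpt1a (adjusted p = 0.517) and -0.22 ± 0.08 for Acsl5 (adjusted p = 0.284). Acadm gave 0.02 ± 0.09 (adjusted p = 0.961), which turned negative under both scalings, Ehhadh -0.16 ± 0.13 (adjusted p = 0.715) and Ppara 0.07 ± 0.13 (adjusted p = 0.916). None of the 39 other oxidation genes or the 32 genes of the PPARA list was called on chow.

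On HFD the GCGR antibody group had 4 of the 32 genes lower and none higher, against 2.12% of all tested genes called lower and 5.33% higher. They were Acsl5, Crat, Cpt2 and Acads, of which the first 3 belong to activation and the shuttle. Estimates were negative in 24 of 32 genes, with a median of -0.15, while 62.8% of all tested genes had a positive estimate and their median was 0.05. At an unadjusted p under 0.05 there were 15 of the 32 genes downward and 1, Decr2, upward, and 24.0% of all tested genes passed in either direction. This comparison and the diet effect under the control antibody share the 6 HFD control libraries, so a high value there raises the one and lowers the other.

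Acsl5, on chromosome 19 (55251861 to 55296628), ran from 114 (median 129.6) to 152 RPKM in HFD control and from 84.9 (median 96.4) to 106 in HFD GCGR antibody. The groups did not overlap, and the difference was -0.42 ± 0.07 (adjusted p = 8.31e-04). On chow its libraries were at 95.3, 101, 103, 108 and 118 RPKM with the control and from 83.3 (median 86.7) to 102 with the GCGR antibody. Cpt2, on chromosome 4 (107903982 to 107923589), ran from 59.5 (median 64.5) to 65.0 in HFD control and from 47.1 (library 19, median 56.2) to 58.0 in HFD GCGR antibody, also without overlap. The difference was -0.21 ± 0.05 (adjusted p = 0.0194). Acsl5 overlaps Zdhhc6 on the opposite strand, and the strand setting of the counting is not known. Acsl5 and Cpt2, 2 of the 32 genes, were separated downward, against 0.846% of all tested genes.

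Crat, on chromosome 2 (30400476 to 30416017), had the largest difference. The HFD control libraries ran from 18.05 (median 33.2) to 42.1 RPKM and the HFD GCGR antibody libraries from 7.30 (library 23, median 15.3) to 26.4 (library 19). The ranges overlapped, and the difference was -1.10 ± 0.22 (adjusted p = 0.00309). The HFD GCGR antibody mean of 15.1 ± 6.50 RPKM compares with 10.4 ± 2.18 in chow control, 10.7 ± 1.89 in chow GCGR antibody and 32.4 ± 8.85 in HFD control. The last bases of Crat overlap Dolpp1 on the opposite strand. Acads, on chromosome 5 (115110299 to 115119346), ran from 78.5 (library 13, median 92.5) to 101 in HFD control and from 68.0 (library 23, median 76.6) to 82.4 in HFD GCGR antibody. The difference was -0.26 ± 0.07 (adjusted p = 0.0170).

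**Figure D3:**
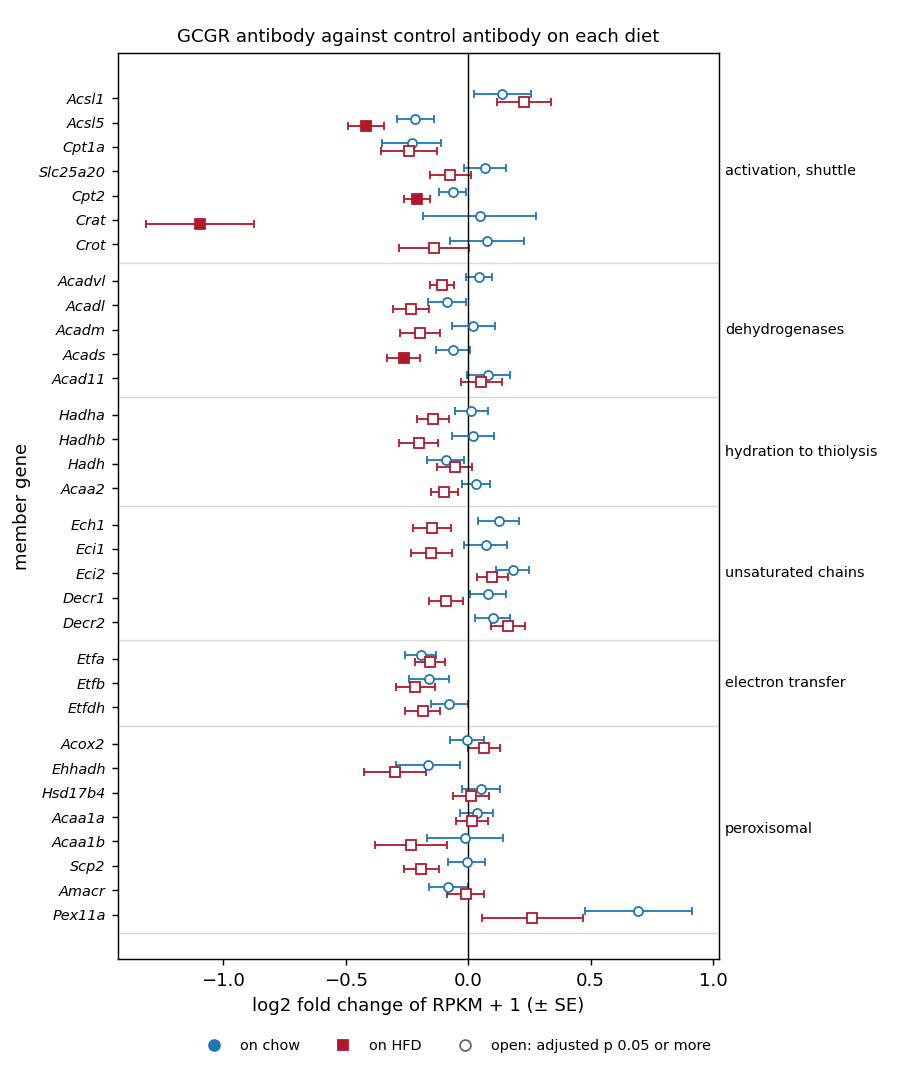
The x axis is the GCGR antibody minus control difference in log2(RPKM + 1) with bars of 1 SE for each of the 32 genes, listed by role on the y axis, on chow and on HFD; filled symbols passed an adjusted p of 0.05. On chow no point is filled and Pex11a is farthest out at 0.70, and on HFD the filled points are Acsl5 (-0.42), Crat (-1.10), Cpt2 (-0.21) and Acads (-0.26).

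The count of 4 depended on how the libraries were scaled. With median-ratio or upper-quartile scaling 12 of the 32 genes were lower and none higher, the added ones being Acadl, Etfdh, Scp2, Hadhb, Etfa, Hadha, Acadm and Acadvl. The same scalings moved the calls over all genes from 636 higher and 253 lower to 378 and 503 (median ratios) or 400 and 473 (upper quartile). With only the HFD groups in the fit 2 of the 32 stayed under the threshold, Acsl5 and Crat. An exact rank-sum test passed none of the 11939 genes in this comparison, so it says nothing on these 4. Without library 20, and also without libraries 19 and 20, 8 of the 32 genes were lower. With both left out 472 were lower over all genes. Acads was not called without library 12 (adjusted p = 0.0516).

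The other 28 genes were not called on HFD, some with estimates as large as those of Cpt2 or Acads. Acadl missed the threshold at -0.23 ± 0.07 (adjusted p = 0.0518), with 106 ± 6.36 RPKM in HFD control and 90.5 ± 7.33 in HFD GCGR antibody. Among the genes not called, the largest estimates were -0.30 ± 0.13 for Ehhadh (adjusted p = 0.147), 0.26 ± 0.21 for Pex11a (adjusted p = 0.458) and -0.24 ± 0.11 for Cpt1a (adjusted p = 0.202). Acadm gave -0.20 ± 0.08 (adjusted p = 0.147). Hadh, the gene with the clearest diet effect, gave -0.05 ± 0.07 (adjusted p = 0.680). By role, all 4 genes of hydration to thiolysis and all 3 of electron transfer had negative estimates, and the 8 peroxisomal genes divided into 4 positive and 4 negative.

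Outside the 32 genes, 3 of the 39 other oxidation genes were higher (7.69%) and 2 lower (5.13%) with the antibody on HFD, and of the 32 genes of the PPARA list 1 was higher (3.12%) and 2 lower (6.25%). Of all tested genes 5.33% were higher and 2.12% lower. Plin2, the lipid droplet coat gene, which stands on the PPARA list, went from 348 ± 57.6 RPKM in HFD control to 209 ± 54.0 in HFD GCGR antibody, a difference of -0.75 ± 0.16 (adjusted p = 0.00548). Acat1 was lower, with a difference of -0.34 ± 0.08 (adjusted p = 0.00681). The corepressor gene Ncor1 (0.32 ± 0.05, adjusted p = 4.44e-04), the oxidase gene Acox3 (0.32 ± 0.06, adjusted p = 0.00140) and the synthetase gene Acsl4 (0.35 ± 0.08, adjusted p = 0.0114) were higher. Ppara gave 0.12 ± 0.13 (adjusted p = 0.607).

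Of the 46 tested markers of other cells 5 were higher in HFD GCGR antibody than in HFD control (10.9%, against 5.33% of all tested genes) and 1 was lower. The higher ones were 1 of 10 macrophage and monocyte markers (Cd14), 1 of 10 stellate and matrix markers (Lum), 1 of 8 endothelial markers (Lyve1) and 2 T and NK cell markers (Cd3g and Il2rb), and the lower one was the red cell gene Alas2 (-0.73 ± 0.10). Of the 8 hepatocyte markers Alb was lower (-0.37 ± 0.09, adjusted p = 0.0137). The hepatocyte markers summed to 57373 to 67644 RPKM in HFD control and 49607 to 55238 in HFD GCGR antibody, without overlap. The largest part of that sum was Alb, at 36440 ± 3704 and 28129 ± 1579 RPKM. The other 7 hepatocyte markers were not called, and the estimates of the 8 were 2 positive and 6 negative. Stellate and matrix sums ran from 85.2 to 140.1 and from 81.9 to 190. Red blood cell sums ran from 1287 to 2542 and from 802 to 1830. The part of these markers in the lower values of Acsl5, Crat, Cpt2 and Acads was not tested.

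**Figure D4:**
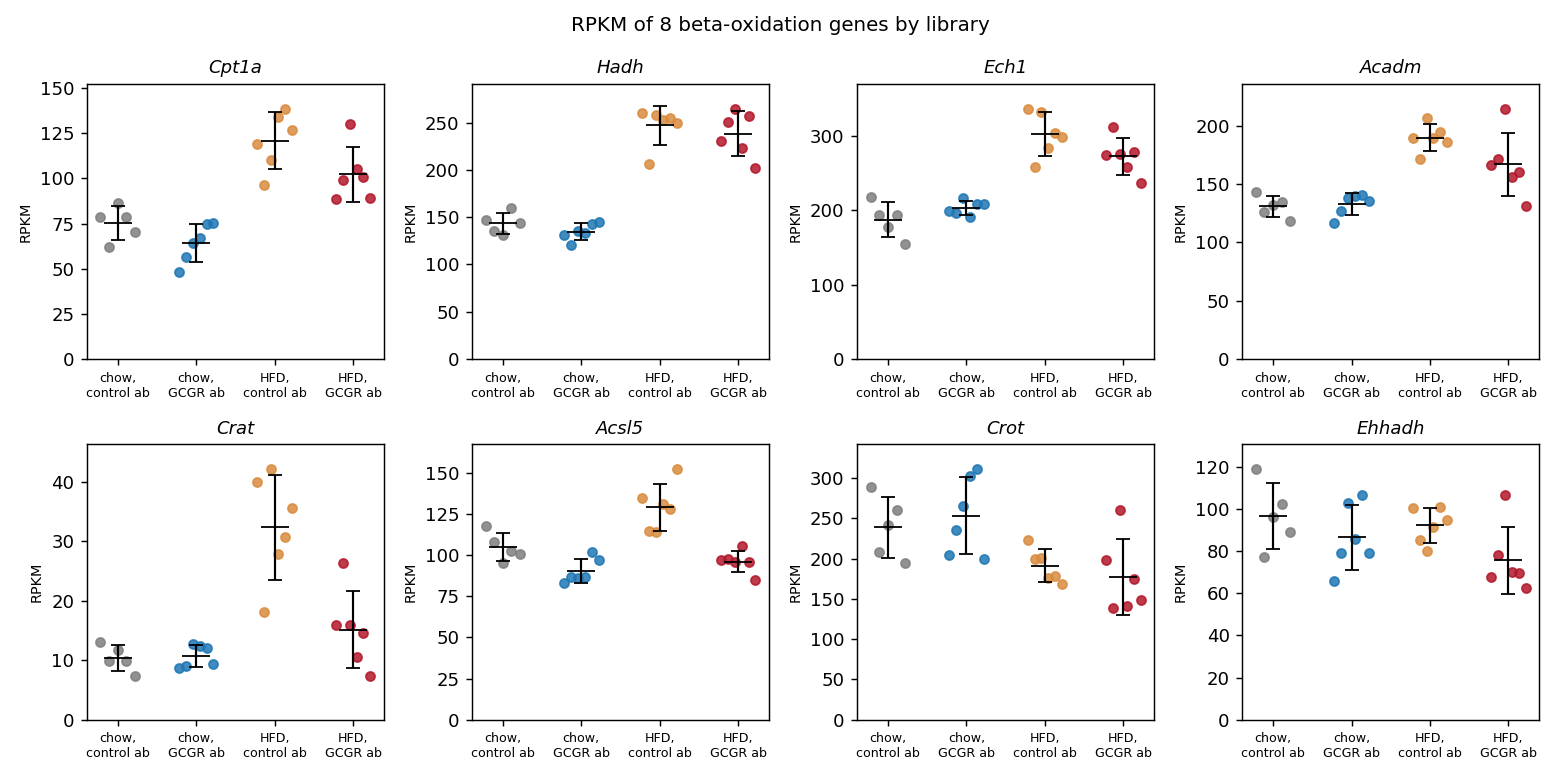
Each panel shows 1 of 8 genes (Cpt1a, Hadh, Ech1, Acadm, Crat, Acsl5, Crot and Ehhadh), with the 4 groups on the x axis, RPKM on the y axis, a point per library and a bar at the group mean. Cpt1a, Hadh and Ech1 are separated by diet under both antibodies, the Crat mean is 32.4 RPKM in HFD control and 10.4 to 15.1 RPKM in the other groups, and the Ehhadh groups overlap.

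Whether the antibody effect differed between the diets was tested by the interaction. None of the 32 genes was called, against 0.126% of all tested genes called higher and 0.0754% lower. Limma counted 4 of the 32 at an unadjusted p under 0.05, all negative (Crat, Ech1, Acadvl and Acads), where 9.86% of all tested genes passed. Under both scalings the calls over all genes went from 15 higher and 9 lower to 7 higher and 10 (median ratios) or 11 (upper quartile) lower. Estimates were negative in 26 of 32 genes and positive in 53.9% of all tested genes, with medians of -0.14 and 0.02. The same number compares the diet effects under each antibody, since the interaction is 1 quantity read in either direction.

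Crat had the largest interaction, -1.14 ± 0.32 (unadjusted p = 0.00161, adjusted p = 0.176). Without library 19, the highest of its group for Crat, it was -1.32 and passed (adjusted p = 0.0361). Without libraries 19 and 20 it was -1.40 (adjusted p = 0.0237). In the other 26 of 28 alternatives Crat was not called. With each library left out in turn, the Crat estimate ran from -1.32 to -0.97 and its adjusted p reached 0.363. The next largest were -0.43 ± 0.30 for Pex11a (adjusted p = 0.675) and -0.27 ± 0.11 for Ech1 (adjusted p = 0.440). Cpt2 gave -0.15 ± 0.08 (adjusted p = 0.553) and Acsl5 -0.20 ± 0.11 (adjusted p = 0.543). For Cpt1a the estimate was -0.01 ± 0.17 (adjusted p = 0.991), for Acadm -0.22 ± 0.12 (adjusted p = 0.568), for Ehhadh -0.14 ± 0.18 (adjusted p = 0.842) and for Ppara 0.05 ± 0.19 (adjusted p = 0.947). The antibody estimates of the 2 diets, which share no library, had the same sign in 20 of the 32 genes, 13 negative and 7 positive. Of all tested genes 63.0% were positive on chow and 62.8% on HFD. How many of them had the same sign on both diets was not counted, so the 20 have no reference.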

How the data were processed

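Per the labels' protocols, the authors made stranded mRNA libraries with a KAPA kit in 12 PCR cycles, and a HiSeq 2500 read them in single-read runs of 33 cycles. The labels give no batch. The submitters' processing notes name bcl2fastq 2.17, FastQC and GRCm38. Which aligner, counter, annotation and strand setting were used is not given in the sources used here. For that reason genes that overlap another gene, or share sequence with one, are uncertain. The authors deposited 1 table of RPKM values for 23 libraries, whose columns carry the sample names. Because RPKM are not counts, neither a count model nor a counting interval was used.

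Values were transformed to log2(RPKM + 1), which understates changes of low genes, after keeping genes with at least 0.5 RPKM in at least 5 libraries. limma 3.58.1 in R 4.3.3 was fitted to the 4 group means of all libraries with a mean-variance trend, two-sided, adjusted by Benjamini-Hochberg over 11939 genes, with a threshold of 0.05. The script was checked on simulated data. Promoters and positions are from RefSeq (GRCm38.p6). Shared sequence was counted as 33-base windows of GENCODE transcripts.

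The genes and lists were chosen with earlier results of these data known. Named were, per comparison, up to 12 called genes of the 32 by smallest adjusted p and the 3 largest not called, up to 5 called genes of the other lists, and always Cpt1a, Acadm, Ehhadh and Ppara. Some genes of the other lists that this rule takes are not reported here. Further genes of the 32 were described to account for all, and marker genes with values were chosen after these were seen. The alternatives were another pseudocount (0.1), no filter, 2 scalings, a fit of only the groups compared, an exact rank-sum test and leaving out each library. Leaving out libraries 19 and 20 together was added after the data were seen.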

Additional observations from a re-analysis of the deposited data

Results flagged for a closer look

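A value far from the rest of its group was found in 7 of the 128 sets of 1 gene in 1 group, where chance gives about 1 in 20. Library 19 of the HFD GCGR antibody group was low for Acsl1 (270.0 RPKM, nearest 340.2) and for Cpt2 (47.1, nearest 54.7). Library 20 of that group was high for Ehhadh (106, nearest 78.0) and for Pex11a (95.4, nearest 54.7). Library 13 of the HFD control group was low for Hadh (206, nearest 249.9) and for Hsd17b4 (160.0, nearest 184). Library 2 of the chow control group was low for Acad11 (79.9, nearest 97.98).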

How the results depend on the processing

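No paired analysis was possible because each replicate number occurs in 1 group only. Leaving the exact rank-sum test aside, 23 of the 24 genes higher on HFD under the control antibody were called in every alternative run (not Acaa1b), 15 of the 17 called under the GCGR antibody (not Hadhb and Hsd17b4), and 2 of the 4 lower with the antibody on HFD (not Acads and Cpt2). With that test too, the diet numbers were 21 and 12. No called gene changed direction. In the fit of only the groups compared, the genes of the 32 lower on HFD under the control antibody went from 0 to 1 (Crot, adjusted p = 0.0440). Over all genes the lower calls went from 2183 to 2330. Those of the 32 called higher with the antibody on chow went from 0 to 1 (Pex11a), and over all genes from 47 to 65. Those lower with the antibody on HFD went from 4 to 2, with 288 higher and 135 lower over all genes. The exact rank-sum test gave 0 lower genes of the 32 in the diet comparison under the GCGR antibody (1204 lower over all genes), and 0 higher and 0 lower over all genes, and so 0 of the 32, for the antibody on either diet, where it says nothing on single genes. Median-ratio and upper-quartile scaling gave 12 of the 32 lower with the antibody on HFD, 378 or 400 higher and 503 or 473 lower over all genes, and 7 higher in the interaction, and turned Acadm on chow to -0.025 and -0.019. No filter gave 4 higher and 4 lower in the interaction. Without libraries 19 and 20 there were 2 of the 32 lower on HFD under the GCGR antibody (Crot and Ehhadh, with 1849 lower over all genes). With the antibody on HFD 8 of the 32 were lower (472 over all genes). In the interaction 1 of the 32 was lower (Crat), with 73 higher and 59 lower over all genes.

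Leaving out 1 library at a time, the genes of the 32 lower on HFD under the GCGR antibody were 1 to 2, those lower with the antibody on HFD 3 to 8 and those lower in the interaction 0 to 1. Over all genes the antibody gave 21 to 59 higher and 35 to 74 lower on chow, 375 to 1151 and 169 to 453 on HFD, and 3 to 44 and 2 to 21 in the interaction. Estimates near 0 changed sign: Ehhadh for diet under the control antibody (-0.13 to 0.020), Acadm (-0.013 to 0.058) and Ppara (-0.026 to 0.18) for the antibody on chow, and Cpt1a (-0.088 to 0.057) and Ppara (-0.059 to 0.14) for the interaction. The cause of these changes was not tested. Depth is unknown, so no limit from depth could be given.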
